A study of Mus musculus with 4 samples.

Results

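The semaphorin, plexin, ephrin, Eph, Slit, Robo, netrin and Unc5 genes were followed through 4 RNA-seq libraries of MPC, a conditionally immortalised mouse podocyte line. Members were the protein-coding genes whose symbols start with Sema, Plxn, Efna, Efnb, Unc5 or Robo, or read Epha, Ephb, Ntn or Slit (1 to 3) plus a number, with 1 Sema gene left out. The rule took 67 of the 56393 genes in the deposited table, in 8 families. It used gene names and no measured value. It also took Unc50, which encodes a Golgi and nuclear membrane protein, and Unc5cl, a relative of the Unc5 receptors that acts in NF-kB signalling, and neither is a netrin receptor.

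The cells carried a hairpin against Jaml with added D-glucose (sh-JAML/HG, final 40 mmol/L for 24 h), a control hairpin with the same glucose (sh-NC/HG), the Jaml hairpin without added glucose (sh-JAML), or the control hairpin without it (sh-NC). All cultures had been kept for 7 days at 37 °C without interferon-gamma so that they differentiated, after growth at 33 °C with 20 U/ml of it. The labels give 10% serum for every library. Each group had 1 library, so a pair of libraries gives a ratio with a counting error and no test of the condition. The labels name no osmotic control, and they do not say how many clones or cultures lie behind a library. The series design speaks of 4 glucose-treated and 4 untreated samples, while the 4 libraries analysed here are 2 of each. In bulk RNA, fewer cells of a type and less RNA per cell cannot be told apart.

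Guidance molecules were first described in growing axons, where a ligand on or from 1 cell steers the membrane and actin skeleton of another. Class 3 semaphorins are secreted and signal through neuropilin and plexin pairs, ephrins are membrane ligands that also signal backwards when an Eph receptor binds them, Slits are secreted ligands of Robo receptors, and netrins signal through Dcc, neogenin and Unc5 receptors. Podocytes are known to use several of them: secreted Sema3a disturbs foot processes, ephrin-B1 sits at the slit diaphragm, and Robo2 binds nephrin through the adaptor Nck.

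The deposited estimated counts summed to 83551812 for sh-JAML/HG, 94341975 for sh-NC/HG, 79330461 for sh-JAML and 80599238 for sh-NC. Jaml had a count of 0 in all 4 libraries, those with the control hairpin included. Neither the labels of the hairpin nor a loss of Jaml RNA could therefore be checked. Of 18 podocyte markers 12 were past the count minimum, a mean of at least 50 over the libraries. Of these, Synpo (synaptopodin) stood between 172 and 246 CPM. Nphs1 (nephrin) was under the minimum and had at most 35 counts, and the podocyte marker Tcf21 was at 0 in every library. Of the 12 endothelial markers 3 were past the minimum, Kdr, Erg and Tie1 were at 0 in every library, and Cdh5 had at most 5 counts. Of the 10 neuron and glia markers 3 were past it, with Sox10 and Olig2 at 0, and the 10 leukocyte markers (3 past it) summed to at most 68.3 CPM. The 10 mesangial and fibroblast markers (7 past it) summed to 1412 to 2101 CPM and the 12 tubule markers (5 past it) to 851 to 1345 CPM. The podocyte list summed to 2337 to 2720 CPM. The sh-NC/HG library stood apart: its 13 mitochondrial mRNAs summed to 13423 CPM, against 21212 CPM for sh-JAML/HG, 20536 for sh-JAML and 19778 for sh-NC.

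Of the 67 members, 43 were past the count minimum. The other 24 had at most 71 counts in any library. Epha3, Epha8 and Sema3e were at 0 throughout, and 10 members in all never reached the floor of 12 counts, which is 3 sequenced fragments. Slit3 had at most 8 counts and Robo1 at most 12. Robo2, the slit diaphragm partner, had 18 counts for sh-JAML/HG, 30 for sh-NC/HG, 7 for sh-JAML and 33 for sh-NC. Its level was too low in every library for a ratio. The netrin receptor gene Unc5c had between 5 and 13 counts.

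Gene positions below are those of GENCODE M21 on GRCm38 (mm10). Levels are CPM scaled by TMM factors, and only where they are divided by exon length (CPM per kb) are they set against each other between genes. Promoter windows from RefSeq (GRCm38.p6, 250 bases before to 50 after a start) were found for 59 of the 67 members. Windows of Efna1, Efna3 and Efna4 are shown because these neighbouring genes on chromosome 3 had unlike values, and that of Sema4c because it was the only member called by any test. Capitals mark GCGTG or ACGTG, the core bound by hypoxia-inducible factors, and the GC box GGGCGG, each searched on both strands, so that a match on the other strand reads CACGC or CCGCCC. The windows run 5′ to 3′ on the gene's strand, which is the minus strand for all 4 (mm10): Efna1 chr3:89280902-89281201, Efna3 chr3:89322890-89323189, Efna4 chr3:89337979-89338278 and Sema4c chr1:36558332-36558631.
Efna1: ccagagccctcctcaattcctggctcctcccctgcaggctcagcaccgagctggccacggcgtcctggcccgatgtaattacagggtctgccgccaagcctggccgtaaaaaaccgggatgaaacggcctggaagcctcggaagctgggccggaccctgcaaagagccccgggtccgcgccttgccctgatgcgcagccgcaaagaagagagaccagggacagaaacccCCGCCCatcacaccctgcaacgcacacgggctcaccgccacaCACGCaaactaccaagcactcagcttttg
Efna3: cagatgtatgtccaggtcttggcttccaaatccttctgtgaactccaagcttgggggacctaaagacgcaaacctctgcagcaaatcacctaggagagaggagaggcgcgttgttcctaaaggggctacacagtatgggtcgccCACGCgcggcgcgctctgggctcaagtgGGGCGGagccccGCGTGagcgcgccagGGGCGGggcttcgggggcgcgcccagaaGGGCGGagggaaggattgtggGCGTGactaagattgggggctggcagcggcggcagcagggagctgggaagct
Efna4: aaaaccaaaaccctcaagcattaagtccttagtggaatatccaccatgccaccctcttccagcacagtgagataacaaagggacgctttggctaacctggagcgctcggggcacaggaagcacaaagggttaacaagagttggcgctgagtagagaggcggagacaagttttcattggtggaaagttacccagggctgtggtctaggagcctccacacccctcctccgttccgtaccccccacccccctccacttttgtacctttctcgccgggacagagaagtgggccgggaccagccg
Sema4c: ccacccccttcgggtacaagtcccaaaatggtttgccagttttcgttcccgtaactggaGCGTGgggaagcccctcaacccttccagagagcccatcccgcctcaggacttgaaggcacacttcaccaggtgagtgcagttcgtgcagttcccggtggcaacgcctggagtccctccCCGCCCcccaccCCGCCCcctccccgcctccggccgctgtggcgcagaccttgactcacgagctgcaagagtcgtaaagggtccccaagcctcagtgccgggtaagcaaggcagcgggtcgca
GCGTG occurred 1 time in the Efna1 window, 3 times in that of Efna3, 0 times in that of Efna4 and 1 time in that of Sema4c, and the GC box 1, 3, 0 and 2 times in the same order. ACGTG occurred in none of these 4. GCGTG was present in 44.1% of the 59 member windows, against 32.4% of all 32851 windows, ACGTG in 15.3% against 19.6%, and the GC box in 72.9% against 35.7%. Member windows had a median GC content of 65.0%, against 52.7% over all windows. Each member had 1 window, the one nearest the 5′ end of its gene. The 32851 windows were taken without such a choice and without a limit by gene type. The part of this in the gaps was not tested. These counts describe the letters of the windows and no binding was measured.

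Each family had a member past the count minimum, and the highest members stood above the median of all genes. Plxnb2, a receptor for class 4 semaphorins, led with 147 CPM per kb in sh-JAML/HG, while sh-NC/HG stood at 150.2, sh-JAML at 140.4 and sh-NC at 144, and made up 65.0% of the summed plexin level per kb. Next came the laminin-binding netrin gene Ntn4 with a mean of 71.1 CPM per kb, the Eph receptor gene Epha2 with 46.9, the class 3 receptor gene Plxna1 with 45.6 and the secreted semaphorin gene Sema3f with 40.4. Ntn1, which encodes the classical netrin, had 34.8 CPM per kb, its receptor gene Unc5b 33.2, Efna4 32.6, Ephb4 29.0 and its ligand gene Efnb2 24.8. The median of the 43 members was 6.15 CPM per kb, beside 6.85 over all 14187 genes past the minimum. Neighbours in this order lay close: Unc5b and Efna4 overlapped in their ranges over the libraries, as did Epha2 and Plxna1.

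**Figure D1:**
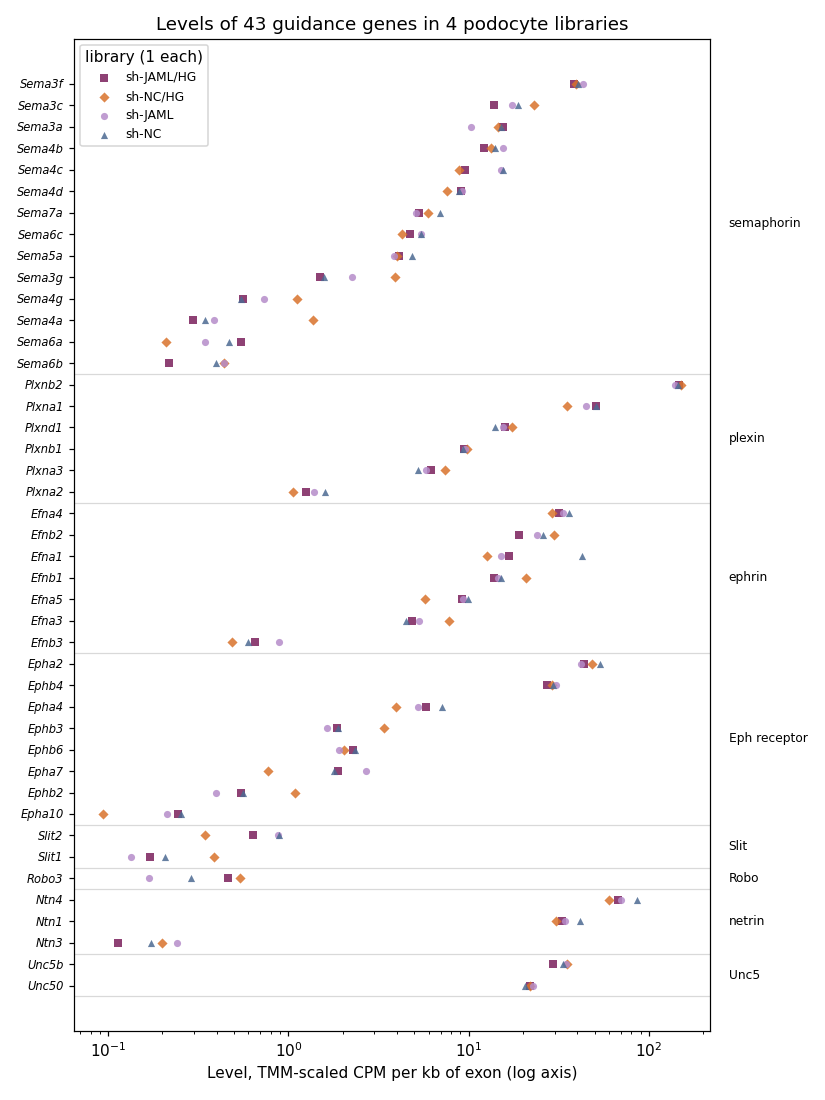
Level of each of the 43 guidance genes past the count minimum, in TMM-scaled CPM per kb of exon on a log axis, with 1 marker per library and genes grouped by family. Plxnb2 lies highest in its family at 140.4 to 150.2 CPM per kb, and the Efna1 marker of sh-NC (42.4 CPM per kb) stands apart from its other 3.

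Of the receptor and co-receptor genes only some were past the minimum, and no protein was measured. The class 3 semaphorin co-receptor genes Nrp1 and Nrp2 had 179 and 329 CPM in sh-JAML/HG, while sh-NC/HG stood at 173 and 289, sh-JAML at 204 and 407, and sh-NC at 209 and 436 CPM. Neo1, the neogenin receptor gene for netrins, stood between 111 and 118 CPM. Dcc, the other attractive netrin receptor gene, had between 30 and 49 counts and was under the minimum. Among Robo receptors only Robo3, at 0.169 to 0.541 CPM per kb, was past it, and of the Slit ligands Slit1 and Slit2. The summed Slit level was 0.807 CPM per kb in sh-JAML/HG, while sh-NC/HG stood at 0.732, sh-JAML at 1.01 and sh-NC at 1.11. The netrins summed to 90.9 to 128 CPM per kb.

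In control-hairpin cells, high glucose came with 8 guidance genes at least 2-fold apart. In sh-NC/HG over sh-NC, 3 of the 43 members (6.98%) were at least 2-fold higher, against 4.65% of all genes. At least 2-fold lower were 5 (11.6%), against 3.27%, and either way 8 (18.6%), against 7.92%. The higher members were the semaphorin genes Sema4a, Sema3g and Sema4g, and the lower ones were Efna1, Slit2, the Eph receptor genes Epha7 and Epha10, and Sema6a. The median log2 ratio of the members was -0.05, beside 0.00 over all genes, and 19 lay above 0 and 24 below. The median size of the log2 ratio, taken without its sign, was 0.46 in the members and 0.23 over all genes. Ratios are followed by their exact 95% counting interval, which leaves out how cultures vary.

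Sema4a, a membrane semaphorin gene with roles in T cells and vessels (ENSMUSG00000028064, chromosome 3, 88435959 to 88461182), had 1.61 CPM in sh-JAML/HG, while sh-NC/HG stood at 7.39, sh-JAML at 2.09 and sh-NC at 1.87 CPM. It was high in 1 library and alike in the other 3. It was 3.93-fold higher in sh-NC/HG relative to sh-NC (2.76 to 5.82), from 690 and 149 counts. Sema3g, a secreted semaphorin gene with a protective role in podocytes (chromosome 14, 31217860 to 31230352), had 6.82 CPM in sh-JAML/HG, while sh-NC/HG stood at 17.6, sh-JAML at 10.2 and sh-NC at 7.18 CPM. Here sh-NC/HG was again the highest library, with a 2.45-fold difference from sh-NC (2.02 to 2.98). Sema4g, which encodes a little-studied class 4 semaphorin, was 2.04-fold higher (1.60 to 2.64), with 9.68 CPM in sh-NC/HG and 4.74 CPM in sh-NC.

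The B-class Eph receptor genes past the minimum, 4 in all, differed among themselves. Ephb2 had 6.90 CPM in sh-JAML/HG, while sh-NC/HG stood at 13.7, sh-JAML at 4.98 and sh-NC at 7.10 CPM, and was 1.93-fold higher in sh-NC/HG relative to sh-NC (1.58 to 2.38). Ephb3 was 1.79-fold higher (1.54 to 2.09). Ephb4, the venous Eph receptor gene that pairs with Efnb2, was level, at 126 CPM in sh-JAML/HG, while sh-NC/HG stood at 135, sh-JAML at 141 and sh-NC at 137 CPM. Ephb6, whose kinase domain is inactive, was 1.15-fold lower in sh-NC/HG relative to sh-NC (0.932 to 1.43), at 7.68 and 8.88 CPM. The slit diaphragm ligand gene Efnb1 had 72.3 CPM in sh-NC/HG, against 52.3 CPM in sh-NC, a 1.38-fold difference (1.28 to 1.496), and its levels in sh-JAML/HG (48.0 CPM) and sh-JAML (50.2 CPM) lay near that of sh-NC.

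Epha7, which encodes an ephrin-A receptor (ENSMUSG00000028289, chromosome 4, 28813131 to 28967499), had 18.6 CPM in sh-JAML/HG, while sh-NC/HG stood at 7.66, sh-JAML at 26.7 and sh-NC at 17.7 CPM. High glucose came with a level lower by 2.31-fold under the control hairpin (1.92 to 2.78) and by 1.43-fold under the Jaml hairpin (1.26 to 1.64). Each glucose library was thus below its own control, and each Jaml-hairpin library above its control-hairpin partner. Slit2, the Robo ligand gene (ENSMUSG00000031558, chromosome 5, 47983138 to 48307733), had 16.2 CPM in sh-JAML/HG, while sh-NC/HG stood at 8.77, sh-JAML at 22.2 and sh-NC at 22.5 CPM. The 2 libraries without added glucose agreed for Slit2, and it was lower by 2.57-fold in sh-NC/HG (2.18 to 3.06) and by 1.37-fold in sh-JAML/HG (1.19 to 1.58). Epha10, a receptor gene whose kinase domain is thought to be inactive, was 2.69-fold lower in sh-NC/HG relative to sh-NC (1.43 to 5.09), and Sema6a, a transmembrane semaphorin gene, 2.24-fold lower (1.53 to 3.32), both from low counts.

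The neighbouring ephrin-A genes of chromosome 3 did not share a pattern. Efna1, which encodes a GPI-anchored ligand of Epha2 (ENSMUSG00000027954, 89271733 to 89281142), had 30.5 CPM in sh-JAML/HG, while sh-NC/HG stood at 23.3, sh-JAML at 27.6 and sh-NC at 77.5 CPM. The control library alone was high. Efna1 was 3.33-fold lower in sh-NC/HG relative to sh-NC (3.01 to 3.67) and 2.81-fold lower in sh-JAML relative to sh-NC (2.55 to 3.11), 2 ratios that share the sh-NC library. In the pairs without that library it was 1.11-fold higher in sh-JAML/HG relative to sh-JAML (0.988 to 1.24) and 1.31-fold higher in sh-JAML/HG relative to sh-NC/HG (1.17 to 1.47). Mesangial and fibroblast markers had their highest sum in sh-NC, at 2101 CPM, against 1448 CPM for sh-JAML/HG, 1460 for sh-NC/HG and 1412 for sh-JAML. Of these 10 markers 7 were past the minimum and Itga8 was at 0. Acta2 and Tagln made up most of the sum, and 2 of the 7, Dcn and Des, were instead highest in sh-NC/HG, and their part in the Efna1 result was not tested.

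Efna3 (89313899 to 89322965), another GPI-anchored ephrin gene, had 11.8 CPM in sh-JAML/HG, while sh-NC/HG stood at 19.0, sh-JAML at 12.8 and sh-NC at 11.0 CPM, with sh-NC/HG highest by 1.73-fold over sh-NC (1.47 to 2.04). Efna4 (89333390 to 89338028) had 50.8 CPM in sh-JAML/HG, while sh-NC/HG stood at 46.4, sh-JAML at 53.5 and sh-NC at 57.5 CPM, and its largest ratio in any pair was 1.24-fold. The 3 genes lie within 66.3 kb on the minus strand. Efna3 and Efna4 share 14.1% and 10.51% of their exon bases with antisense genes on the plus strand, which had at most 504 and 352 counts, and whether counting used strand is not given in the sources used here. Outside the cluster, Efna5 was 1.74-fold lower in sh-NC/HG relative to sh-NC (1.56 to 1.94), at 23.0 and 40.1 CPM.

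**Figure D2:**
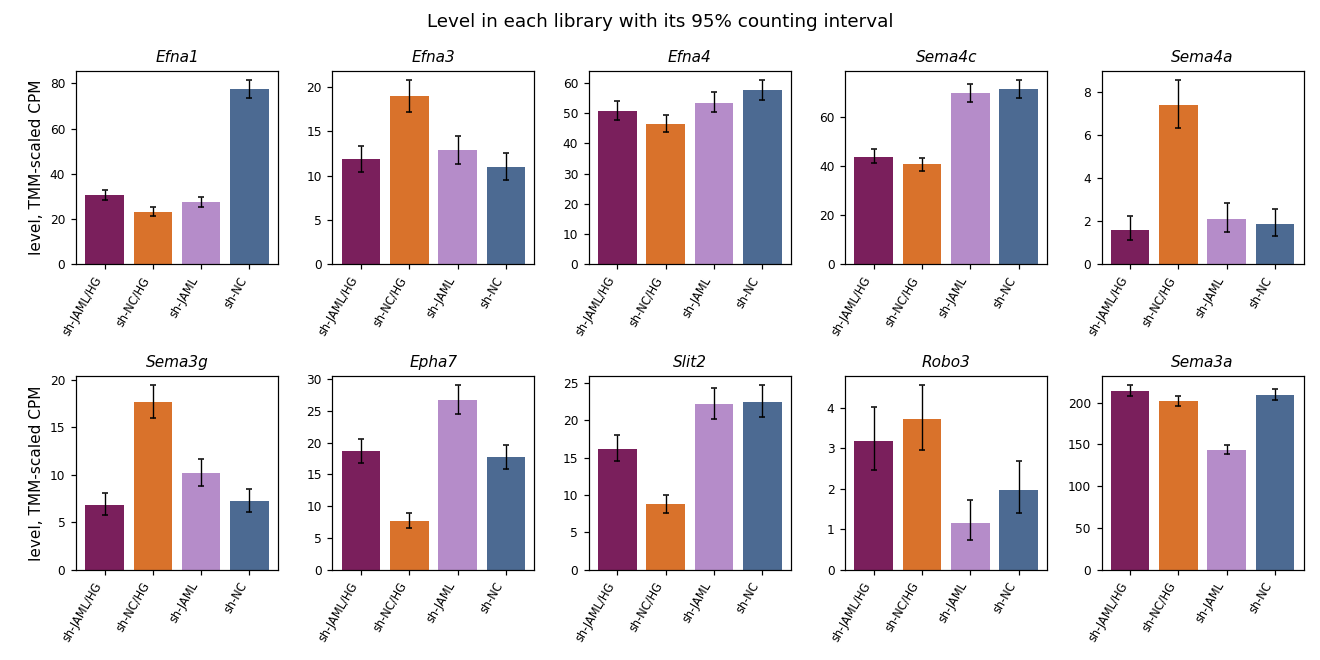
Level of 10 guidance genes in TMM-scaled CPM, with 1 bar per library, an axis that starts at 0 and bars of error that give the exact 95% counting interval of that library. Efna1 is high in sh-NC alone (77.5 CPM), Sema4a and Sema3g in sh-NC/HG alone (7.39 and 17.6 CPM), and Sema4c is lower in both glucose libraries.

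Under the Jaml hairpin, glucose came with fewer differences, among the members and over all genes alike. In sh-JAML/HG over sh-JAML, 1 of 43 members (2.33%) was at least 2-fold higher, against 1.31% of all genes. At least 2-fold lower were 2 (4.65%), against 1.56%, and either way 3 (6.98%), against 2.88%. The higher one was Robo3, a divergent Robo receptor gene, and the lower ones were Ntn3 and Sema6b, both close to the threshold and counted at under 0.6 and 0.9 CPM in sh-JAML/HG. The median log2 ratio of the members was -0.06, beside 0.00 over all genes, and the median size was 0.19, beside 0.12 over all genes. Robo3 (ENSMUSG00000032128, chromosome 9, 37415669 to 37433246) had 3.17 CPM in sh-JAML/HG, while sh-NC/HG stood at 3.71, sh-JAML at 1.16 and sh-NC at 1.96 CPM. The 2 glucose libraries lay above the 2 others, by 2.72-fold over sh-JAML (1.70 to 4.65) and by 1.89-fold over sh-NC (1.27 to 2.82), from 93 to 346 counts.

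Ntn3, another netrin gene, was 2.11-fold lower in sh-JAML/HG relative to sh-JAML (1.06 to 4.80), with 49 and 99 counts. Sema6b, a transmembrane semaphorin gene, was 2.01-fold lower (1.13 to 3.84), with 73 and 140 counts. Sema3a, the secreted semaphorin gene linked to foot process loss (chromosome 5, 13125414 to 13602565), was well counted and had 214 CPM in sh-JAML/HG, while sh-NC/HG stood at 202, sh-JAML at 144 and sh-NC at 209 CPM. The sh-JAML library alone was low, so Sema3a was 1.49-fold higher in sh-JAML/HG relative to sh-JAML (1.42 to 1.56) and 1.04-fold lower in sh-NC/HG relative to sh-NC (0.994 to 1.08). Sema3c, a related secreted ligand gene, was highest in sh-NC/HG (165 CPM, against 133 CPM in sh-NC) and lowest in sh-JAML/HG (99.0 CPM, against 124 CPM in sh-JAML).

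**Figure D3:**
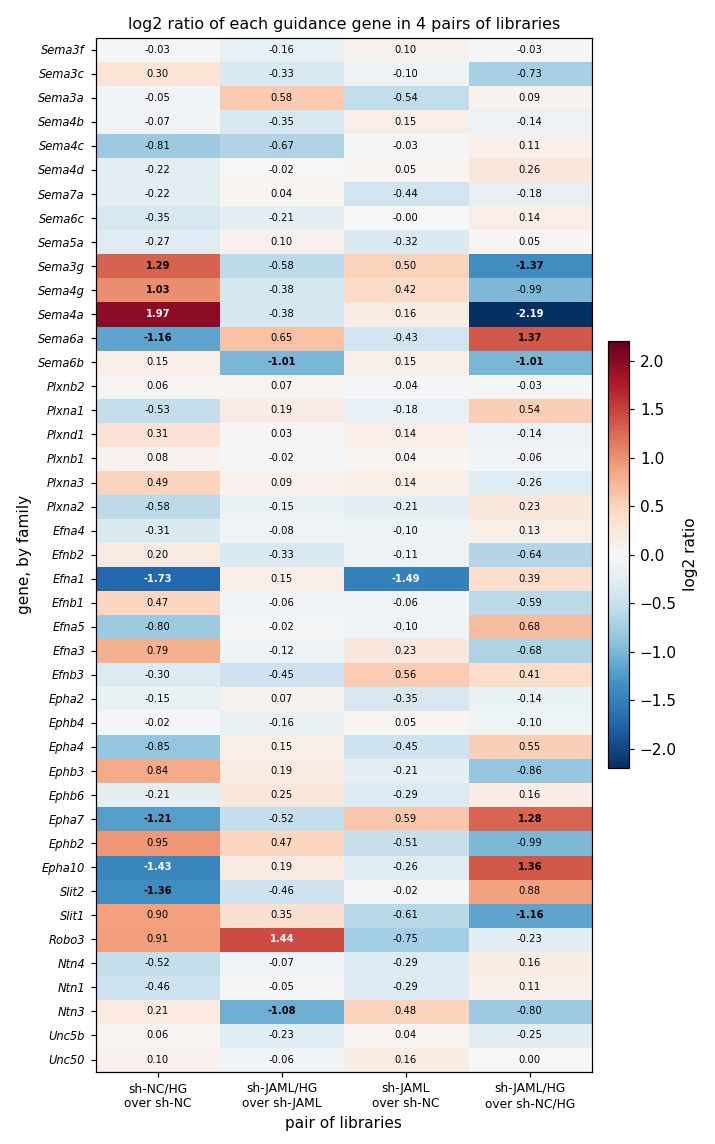
Each cell gives the log2 ratio of 1 gene (vertical axis, by family) in 1 pair of libraries (horizontal axis), in red where the first library is higher and in blue where it is lower, with ratios of at least 2-fold in bold. The columns with sh-NC/HG hold most of the bold values, and pairs that share a library are not independent.

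The 2 glucose pairs share no library, so they can be set beside each other. Of the 43 members 21 lay on the same side of 0 in both, that is 48.8%, beside 51.4% of all genes. At 1.5-fold or more in both pairs, a line chosen after the values were seen, 1 member (2.33%) was higher in glucose, Robo3, against 1.19% of all genes. Lower was 1 (2.33%), Sema4c, against 0.853%. Sema4c, a membrane semaphorin gene that signals through Plxnb2 (ENSMUSG00000026121, chromosome 1, 36548639 to 36558349), had 44.0 CPM in sh-JAML/HG, while sh-NC/HG stood at 40.9, sh-JAML at 69.8 and sh-NC at 71.5 CPM. The glucose libraries lay together and below the other 2, at 1.59-fold lower under the Jaml hairpin (1.46 to 1.73) and 1.75-fold lower under the control hairpin (1.61 to 1.90). Its receptor gene Plxnb2 was level, with ratios between 1.02-fold and 1.05-fold in the 4 pairs. Red cell markers moved with the same libraries, at a summed 0.745 CPM for sh-JAML/HG and 0.654 for sh-NC/HG, against 42.0 for sh-JAML and 37.6 for sh-NC, with 4 of 6 past the minimum and 0 at 0 in all libraries, and their part in the Sema4c result was not tested.

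An additive model of glucose and hairpin over the 4 libraries has 1 residual degree of freedom. Within a gene, the error can come only from how far the pairs disagree. Each tool also draws that error towards a trend over all genes, so the p-values do not measure the disagreement alone. EdgeR's quasi-likelihood test called 0 of 43 members for glucose at a Benjamini-Hochberg adjusted p of 0.05, against 0.00705% of all genes. At an unadjusted p under 0.05 there were 5 members, or 11.6% (Sema4c, Epha7, Robo3, Slit2 and Ephb2), against 2.8% of all genes. Sema4c was the member with the smallest p, with a log2 difference of -0.74 and an edgeR adjusted p of 0.886, and it was lower in 2 of 2 pairs. DESeq2 called Sema4c alone (log2 difference -0.73, SE 0.19, adjusted p = 0.0321), 2.33% of members, where it called 0.374% of all genes. It had 5 members (11.6%) at an unadjusted p under 0.05, against 3.87%. Limma-voom called 0 members (adjusted p = 0.916 for Sema4c). It had 5 members (11.6%) at an unadjusted p under 0.05, against 3.07% of all genes. Sema4c shares 7.27% of its exon bases with the antisense gene D430040D24Rik, which had 374 counts for sh-JAML/HG, 482 for sh-NC/HG, 397 for sh-JAML and 298 for sh-NC, against 3722, 3813, 5600 and 5684 counts of Sema4c in that order.

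**Figure D4:**
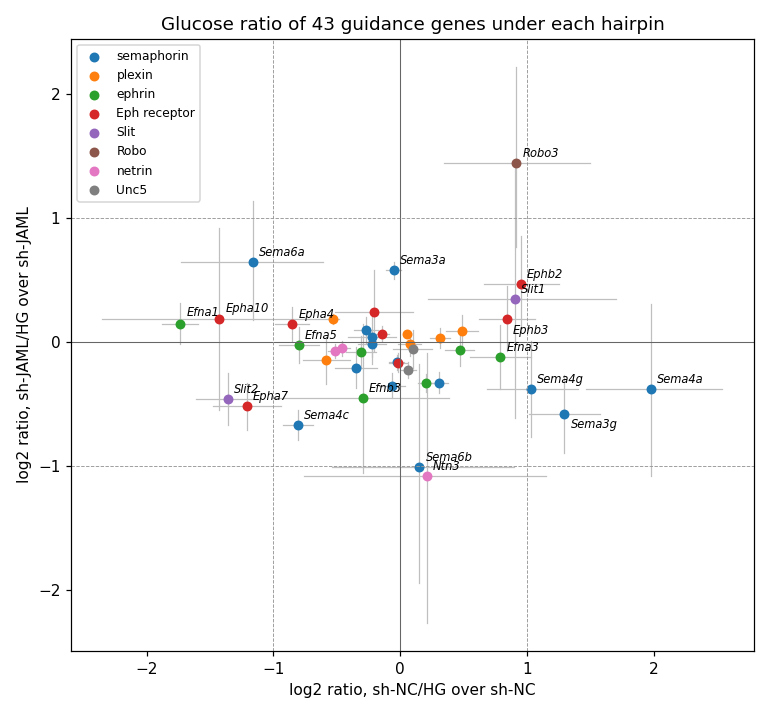
The log2 ratio of each of 43 guidance genes in sh-NC/HG over sh-NC (horizontal axis) and in sh-JAML/HG over sh-JAML (vertical axis), coloured by family, with grey lines for the exact 95% counting interval and dashed lines at 2-fold. Sema4c, Slit2 and Epha7 lie below 0 on both axes and Robo3 and Ephb2 above 0 on both, while Sema4a and Sema3g lie right of 0 and below it.

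Without added glucose, Efna1 was the only one of the 43 guidance genes at least 2-fold apart between the hairpins. In sh-JAML over sh-NC, 0 of 43 members were at least 2-fold higher, against 1.31% of all genes. At least 2-fold lower was 1 (2.33%), Efna1, against 1.4%, and either way 1 (2.33%), against 2.71%. The median log2 ratio was -0.06, beside 0.00 over all genes, and its median size 0.21, beside 0.12. Robo3 was 1.69-fold lower, with an interval whose lower bound of 0.997 lay under 1. Next in size among the members whose interval did not reach 1 were Epha7, 1.51-fold higher (1.32 to 1.73), Sema3a, 1.46-fold lower (1.39 to 1.53), Sema3g, 1.42-fold higher (1.14 to 1.76), and Ephb2, 1.42-fold lower (1.09 to 1.86). The netrin genes Ntn1 and Ntn4 were each 1.22-fold lower, with 214 and 264 CPM in sh-JAML, against 262 and 323 CPM in sh-NC. Both were highest in sh-NC.

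Under high glucose, sh-JAML/HG over sh-NC/HG had 3 members (6.98%) at least 2-fold higher, Epha10, Sema6a and Epha7, against 2.81% of all genes. At least 2-fold lower were 4 (9.30%), Sema4a, Sema3g, Slit1 and Sema6b, against 4.78%. Either way these were 7 members (16.3%), against 7.59% of all genes. This pair shares the sh-NC/HG library with the glucose pair of the control hairpin, so a member that stood out in sh-NC/HG enters both with opposite sign. In sh-JAML/HG, Sema4a was 4.57-fold lower (3.16 to 6.84), Sema3g 2.58-fold lower (2.13 to 3.15), Epha7 2.43-fold higher (2.03 to 2.91) and Sema6a 2.59-fold higher (1.797 to 3.79). Slit1, a Robo ligand gene, had 1.02 CPM in sh-JAML/HG, while sh-NC/HG stood at 2.29, sh-JAML at 0.797 and sh-NC at 1.22 CPM, and was 2.24-fold lower (1.33 to 3.84). Efnb2, the ligand gene of Ephb4, was 1.56-fold lower (1.49 to 1.64), with 131 CPM in sh-JAML/HG, 205 in sh-NC/HG, and with sh-JAML at 165 and sh-NC at 178 CPM.

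Set against the mean of the other 3 libraries, 8 of 43 members (18.6%) were at least 2-fold apart in sh-NC/HG, against 6.72% of all genes. There was 1 such member, or 2.33%, in sh-JAML/HG (Sema4a, against 2.81% of all genes). There was also 1 (2.33%) in sh-JAML (Robo3, against 2.61%) and 1 (2.33%) in sh-NC (Efna1, against 2.59%). The Sema4a call in sh-JAML/HG comes from the high sh-NC/HG value in the mean of the other 3. Its levels in sh-JAML/HG, sh-JAML and sh-NC were alike. For Robo3, the mean beside sh-JAML (1.16 CPM) holds both higher glucose libraries, at 3.17 CPM in sh-JAML/HG and 3.71 CPM in sh-NC/HG. Against sh-NC (1.96 CPM) alone, its counting interval reached across 1. The 8 were Ephb2, Sema3g, Sema4a and Slit1 on the high side and Epha7, Epha10, Sema6a and Slit2 on the low side. The sh-NC/HG library was the highest or the lowest for 33 of the 43 members, or 76.7%, beside 72.3% of all genes. The low mitochondrial mRNA level of that library moves with each of these values: 5 of its 13 mitochondrial genes were at least 2-fold lower than in sh-NC, and their part in the guidance values was not tested. Tubule markers, with 5 of 12 past the minimum and Umod and Slc34a1 at 0, had their highest sum there too, at 1345 CPM, against 851 CPM for sh-JAML/HG, 1077 for sh-JAML and 1053 for sh-NC. Of those 5 markers Lcn2, Cdh16 and Lrp2 were highest in that library, and Cubn and Pax8 were not. The endothelial markers summed to 40.3 CPM in it and to 25.1 to 29.5 CPM in the other libraries, and the part of either list was not tested.

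The hairpin pairs share no library with each other. In both, 1 member (2.33%) was at least 1.5-fold higher with the Jaml hairpin, Epha7, against 0.789% of all genes. Lower in both was 1 (2.33%), Slit1, against 1.19%. Across all members the pairs mostly differed in direction: 14 of 43 lay on the same side of 0 in both, that is 32.6%, beside 51.9% of all genes. The counting interval of Slit1 in sh-JAML over sh-NC reached across 1 (1.52-fold lower, 0.771 to 3.05). EdgeR's quasi-likelihood test called 0 members for the hairpin, where it called 0.0% of all genes. With an unadjusted p under 0.05 there were 2 members (4.65%), Epha7 and Ephb2, against 2.82%. Both were also among the 5 such members for glucose, with opposite sign. The glucose log2 difference was -0.86 for Epha7 and 0.71 for Ephb2, and the hairpin one 0.93 and -0.75. Both genes stood out in sh-NC/HG against the mean of the other 3 libraries. That library enters both factors, so the glucose and hairpin results of these genes are not separate. Epha7 had a log2 difference of 0.93 with an edgeR adjusted p of 0.933, higher in 2 of 2 pairs. DESeq2, with 0.338% of all genes called, and limma-voom, with 0.0%, each called 0 members for the hairpin. Each had the same 2 members (4.65%) at an unadjusted p under 0.05, against 4.19% and 3.22% of all genes.

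None of the 6 plexin genes past the minimum, nor Unc5b or Unc50, was at least 2-fold apart in any of the 4 pairs, where 2.71% to 7.92% of all genes were, so a count of 0 among 8 genes is near the background. Plxnb1, a Sema4d receptor gene, had 90.9 CPM in sh-JAML/HG, while sh-NC/HG stood at 94.5, sh-JAML at 92.1 and sh-NC at 89.7 CPM, and its ligand gene Sema4d stood between 58.5 and 70.6 CPM. Plxna1 was 1.44-fold lower in sh-NC/HG relative to sh-NC (1.398 to 1.49), at 319 and 461 CPM, and 1.14-fold higher in sh-JAML/HG relative to sh-JAML (1.11 to 1.17). Plxnd1, the Sema3e receptor gene, was 1.24-fold higher in sh-NC/HG relative to sh-NC (1.17 to 1.31). Unc5b had 185 CPM in sh-JAML/HG, while sh-NC/HG stood at 219, sh-JAML at 216 and sh-NC at 210 CPM. Sema3f and Sema7a, a secreted and a GPI-anchored ligand gene, stood between 201 and 224 CPM and between 16.9 and 23.0 CPM.

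The receptor partners and effectors of these pathways were counted in the same way, against the shares of all genes given for each pair above. Of 29 co-receptor and other surface partner genes, 19 were past the minimum, and in sh-NC/HG over sh-NC 2 of them were at least 2-fold higher, against 4.65% of all genes, and 0 lower, against 3.27%, with a median log2 ratio of -0.15, beside 0.00 over all genes. These were Flrt1, of a family that binds Unc5 receptors, 2.75-fold higher (2.36 to 3.20) with 31.5 CPM in sh-NC/HG and 11.4 CPM in sh-NC, and the thinly counted Cd72, a Sema4d receptor gene of B cells. Of 30 semaphorin and plexin effector genes 28 were past the minimum, and 1 was apart in that pair: Crmp1, which encodes a collapsin response mediator, was 4.07-fold lower (2.92 to 5.88), at 1.89 and 7.72 CPM. Of 26 Slit, Robo and netrin effector genes 24 were past it, and Srgap1, a Robo-bound GTPase activator gene, was 2.19-fold lower (1.47 to 3.26). Each of these effector lists had a median log2 ratio of 0.01 in that pair.

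The 19 surface partners had, in sh-JAML/HG over sh-JAML, 1 gene at least 2-fold higher, Cd72, against 1.31% of all genes. Lower was 1, Flrt3, an Unc5b ligand gene that was 2.94-fold lower (1.41 to 5.99), against 1.56%. The median of the 19 was 0.01. The semaphorin effectors and the Slit, Robo and netrin effectors had 0 genes apart there, against 2.88% of all genes. None of the 26 Eph and ephrin effectors past the minimum was apart in any of the 4 pairs, and their medians lay between -0.03 and 0.01. In these pairs 2.71% to 7.92% of all genes were apart, so few were to be expected among 26 genes. In sh-JAML over sh-NC 1 gene of all 4 lists was apart, Cd72 (3.73-fold higher, 0.960 to 20.3), against 2.71% of all genes. In sh-JAML/HG over sh-NC/HG the lists held Crmp1, 3.08-fold higher (2.19 to 4.49), and Srgap1, 2.35-fold higher (1.60 to 3.48). Lower were the kinase gene Pak3 by 2.18-fold (1.69 to 2.81), Flrt1 by 2.06-fold and Flrt3 by 3.51-fold. These were 2 of 19 surface partners, 1 of 28 semaphorin effectors and, of 24 Slit, Robo and netrin effectors, 1 each way. Of all genes 7.59% were apart in that pair.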

How the data were processed

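Total RNA of 4 samples was sequenced after the TruSeq RNA guide, per the labels' protocols. CASAVA 1.8, TopHat2 2.0.6 and the build mm10 are named in the submitters' processing notes, and the sources used here do not name what counted the genes. The authors deposited unscaled estimated counts, with 1 row for each Ensembl gene. The columns ctr and HG were taken, from their names, as the libraries sh-NC and sh-NC/HG. Low values pile up at multiples of 4 (1.51 to 2.10 times their even neighbours), so 4 units were taken as 1 fragment in intervals and floors, which cover counting error only. Symbols and exon lengths came from GENCODE M21 (55394 genes matched, 999 not).

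The 14187 genes whose mean count reached 50 were scaled with TMM (R 4.3.3, edgeR 4.0.16). Ratios used a prior count of 1 and exact conditional Clopper-Pearson intervals (95%). The additive model used edgeR's quasi-likelihood test, with DESeq2 1.42.0 and limma-voom 3.58.1 as alternatives, and Benjamini-Hochberg adjustment over all genes. With 1 library per group, p-values rest on disagreement between pairs, which may be technical, and on error estimates shared over all genes. Counts were whole numbers and needed no rounding.

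Members and lists were chosen with earlier results of these data known. Named members were a fixed group known in podocytes or kidney, all at least 2-fold apart in a pair, the 10 highest per kb and the 5 smallest edgeR p-values per factor. Other members are named by family. Partner genes were named where at least 2-fold apart, up to 2 per direction, list and pair. Python 3.11.15, numpy 2.4.6, pandas 2.3.3, scipy 1.17.1 and matplotlib 3.10.9 did the rest.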

Additional observations from a re-analysis of the deposited data

Results flagged for a closer look

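Some guidance genes lay on opposite sides of 1 in matching pairs, at least 2-fold in 1 of them and with both counting intervals off 1. Each side is 1 library against 1, and the difference between the pairs was not tested. For glucose, Sema3g had a log2 ratio of 1.29 in sh-NC/HG over sh-NC and of -0.58 in sh-JAML/HG over sh-JAML, and Sema6a had -1.16 and 0.65 in the same order. For the hairpin, Efna1 had -1.49 in sh-JAML over sh-NC and 0.39 in sh-JAML/HG over sh-NC/HG, and Sema3g had 0.50 and -1.37 in that order.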

How the results depend on the processing

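Counts of members at least 2-fold apart were within 1.5 times their main value with DESeq2 size factors, library totals and a counting interval off 1. Without a count minimum they were 7 higher and 12 lower in sh-NC/HG over sh-NC, 3 and 12 in sh-JAML/HG over sh-JAML, 7 and 11 in sh-JAML over sh-NC, and 6 and 10 in sh-JAML/HG over sh-NC/HG, since thinly counted members enter. With a mean count of at least 200 there were 0 lower in sh-JAML/HG over sh-JAML and 2 lower in sh-JAML/HG over sh-NC/HG, since fewer genes are tested. Counts against the mean of 3 libraries and counts at 1.5-fold in both pairs were added after seeing the data. Members 2-fold from the mean of the other 3 libraries numbered, without a minimum, 14 for sh-JAML/HG, 23 for sh-NC/HG, 15 for sh-JAML and 15 for sh-NC. Members 1.5-fold the same way numbered, without a minimum, 5 in both glucose pairs and 6 in both hairpin pairs, and in the hairpin pairs 1 with library totals and 1 at a mean of at least 200. DESeq2 called 1 member for glucose (Sema4c), against 0 by edgeR, and other settings called 0. Of 240 log2 ratios of named members under other scalings, 238 stayed within their counting interval, 2 left it and 0 changed sign after a 2-fold call. No scaling shifted the median of all genes by more than 0.036 (log2). No paired analysis was possible because the libraries carry no replicate numbers and each group has 1, while the additive model already compares glucose within each hairpin and the hairpin within each glucose level. Leaving out sh-NC/HG leaves no residual degree of freedom, so the additive model was not run without it. Low counts limit what can be said of Robo2, Slit3, Ntn3, Slit1, Epha10 and Sema6b.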

Other observations

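Plxnb3, a plexin gene known from brain and named after its values were seen, was under the count minimum but lay higher in both glucose libraries, with 32 counts in sh-JAML/HG and 71 in sh-NC/HG, against 6 in sh-JAML and 8 in sh-NC. The last 2 values are under the floor of 12 counts, so no fold is given.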
